A study of Mus musculus with 48 samples.

Results

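The cytosolic ribosomal protein genes, which encode the protein part of the ribosome outside the mitochondria, were followed through the day in mouse liver. Members were taken by gene symbol (Rpl or Rps with a number and at most one further letter, plus Rplp0, Rplp1, Rplp2 and Rpsa), without the S6 kinases and Rps19bp1, a rule that uses no measured value. The exon table held 85 of them among 24453 genes, 52 of the large and 33 of the small subunit, and the intron table held 82 among 20771 genes. The libraries came from C57BL/6 wild-type mice (wt) and from nono-/- mice, both 14 weeks old; Nono encodes a nuclear RNA-binding protein. In both genotypes the lights were on for 12 h of the day and food was offered in the dark hours only during the week before collection. Time is given as ZT, the hours since the lights came on, in 12 steps of 2 h. Each sample pooled the livers of 2 mice, and total and nuclear RNA were sequenced from each pool, which gave 4 groups of 12 libraries and 48 in all. There was 1 pool per genotype and time, so the error of every test below is the scatter of single pools around a daily curve, or within the dark and the light samples.

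Ribosomal proteins are made in near-equal amounts and joined to ribosomal RNA in the nucleolus, and the finished subunits are exported to the cytoplasm. Their messenger RNAs begin with a 5′ terminal oligopyrimidine tract (TOP), a C followed by a run of C and T, through which feeding and the mTORC1 kinase control their translation. In rodent liver the ribosome content is known to follow the feeding and fasting cycle. Many of the genes also carry small nucleolar RNAs (snoRNAs), which guide the modification of ribosomal RNA, inside their introns.

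The start-site sequences are shown because the TOP tract is the feature best known to join these genes. RefSeq promoter windows (GRCm38.p6) were matched for 64 of the 85 members. A C at the annotated start followed by at least 4 C or T on the gene strand was present in 13 of the 64 (20.3%), against 2.43% of the 17293 promoters matched to the exon table. Such a run began within 5 bases of the start in 45.3% of the members' windows and in 19% of all. Of 67 mitochondrial ribosomal protein promoters, the comparison family, 0 had the run begin at the start itself and 22.4% had it within 5 bases. In the 30-base windows below, the run is in capitals and the annotated start is base 11. Rps6, the S6 kinase substrate, lies at 4:86857348-86857377 (minus strand), Rpl15 at 14:18270967-18270996 (minus), Rps15a at 7:118116128-118116157 (minus), Rpl27a at 7:109519185-109519214 (plus), Rpl22l1 at 3:28805498-28805527 (plus), Rpl12 at 2:32961702-32961731 (plus), Rpl4 at 9:64173377-64173406 (plus) and Rpl22 at 4:152324426-152324455 (plus).
Rps6: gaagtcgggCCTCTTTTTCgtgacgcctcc
Rpl15: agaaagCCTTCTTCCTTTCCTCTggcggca
Rps15a: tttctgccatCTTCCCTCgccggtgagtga
Rpl27a: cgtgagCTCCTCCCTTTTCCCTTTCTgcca
Rpl22l1: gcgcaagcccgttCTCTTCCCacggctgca
Rpl12: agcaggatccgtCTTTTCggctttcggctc
Rpl4: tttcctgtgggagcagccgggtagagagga
Rpl22: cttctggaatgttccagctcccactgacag
In Rps15a the run begins at the start, in Rps6, Rpl15 and Rpl27a it begins upstream and crosses it, Rpl22l1 and Rpl12 have it a few bases inside the transcript, and Rpl4 and Rpl22 show none within 5 bases. A missing run says only that these letters are not at the annotated start.

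Library facts that bear on the results were these. Depth, worked out from the steps of the deposited values, lay between 9.91 and 28.9 M reads. Wild-type total libraries had 15.2 M reads on average in the dark and 21.7 M in the light. Introns took 73.2% of the reads in wild-type nuclei and 22.1% in wild-type total RNA, and in nono-/- total RNA 18.5%. The summed hepatocyte markers ranged from 28451 to 46647 FPKM in wild-type total RNA, while cholangiocyte markers summed to 1.13 to 3.29 FPKM. Nono itself fell by 6.46 on the log2 scale in total exons of nono-/- mice (limma adjusted p = 5.46e-22). Changes below are log2 differences after scaling each library to the median gene, with a pseudocount of 0.1 FPKM for exons and 0.05 FPKM for introns, so they understate the change of low genes.

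Exon levels differed widely among genes whose proteins are needed in near-equal amounts. FPKM divides reads by gene length and by the reads of the library. In wild-type total RNA the median member stood at 5.96 FPKM, 26 members were under 1 FPKM and 13 were over 50 FPKM. Rpl4, which lines the exit tunnel, was highest at 202 ± 15.4 FPKM (SD, n = 12; 177 to 229), and Rps27l (122 ± 16.4 FPKM) and Rpl8 (95.5 ± 30.8 FPKM) were also high. At the low end, Rpl28 was at 0.122 FPKM and Rps16 at 0.152 ± 0.105 FPKM. Gapdh, a glycolytic enzyme gene used by every cell, was likewise at 0.385 ± 0.158 FPKM.

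Most members share sequence with other genes. A median of 55.1% of a member's 50-base windows occurred in no other annotated gene, 38 members were under 50%, and 82 of 85 shared a window with a pseudogene (a median of 8 pseudogenes per member). The mitochondrial family had a median of 100%, with 1 of 76 genes under 50%. Gapdh had 9.56%. The 17 members with under 25% had a median of 1.03 FPKM, the 21 with 25 to 50% had 10.8 FPKM, the 31 with 50 to 75% had 5.48 FPKM and the 16 with 75% or more had 32.5 FPKM, so the order was not steady. Across the 85 genes Spearman's rho was 0.26 with 50-base windows and 0.38 with 100-base windows, both given as a description. Rpl28, at 0.122 FPKM, had unique sequence in 65.5% of its 50-base windows. The treatment of reads that map to several places was not given in the sources used here, and the part of shared sequence in these levels was not tested.

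**Figure D1:**
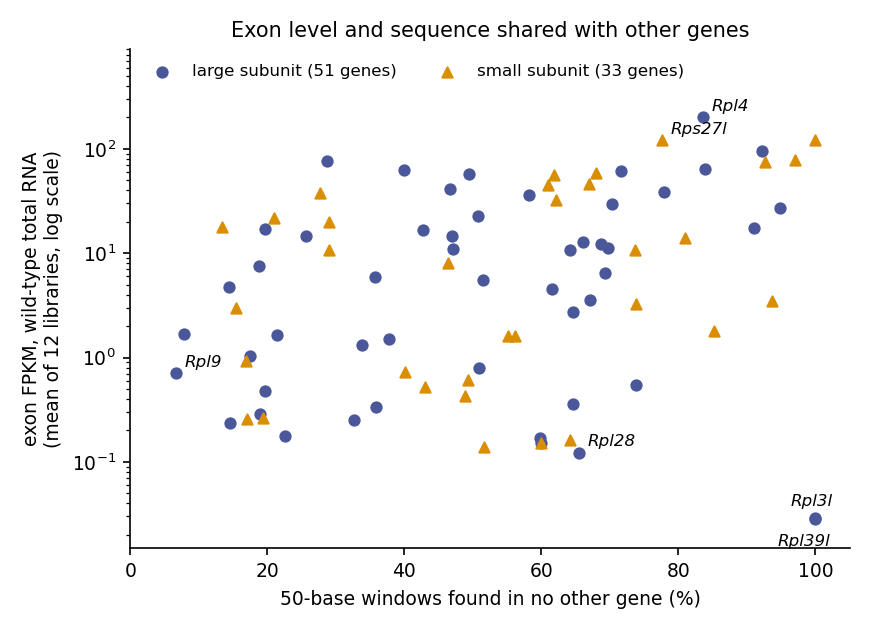
Exon FPKM in wild-type total RNA (mean of 12 libraries, log scale) against the share of 50-base windows that occur in no other gene, 1 point per member with a level above 0; large-subunit genes are circles and small-subunit genes triangles. Levels run from about 0.03 FPKM (Rpl3l, Rpl39l) to 202 FPKM (Rpl4), and members with low unique shares are more often near the bottom, with exceptions such as Rpl28, Rpl3l and Rpl39l.

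Of 10 copies with rows of their own, 4 were above their namesakes in wild-type total RNA and 6 below. Rpl14-ps1, an unspliced copy on another chromosome, was at 54.6 ± 5.04 FPKM, and Rpl14 at 22.5 ± 2.86 FPKM. Rplp2-ps1 was at 11.7 ± 4.79 FPKM beside 6.39 ± 3.45 FPKM for Rplp2, the stalk protein gene. Rpl36al, an autosomal copy of the X-linked Rpl36a, was at 26.4 ± 2.74 FPKM, and Rpl36a at 0.236 ± 0.182 FPKM. These copies were named after their values were seen. Reads could have been split between a copy and its namesake, so the ratio within each pair is uncertain.

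The paralogs of standard members were at very different levels. Rpl3l, the striated muscle form of Rpl3, was at 0.0287 FPKM and Rpl39l, a testis form of Rpl39, at 0.0284 FPKM, and Rpl10l, the testis form of Rpl10, was listed at 0 in every wild-type total library. Rps27l at 122 FPKM, Rpl7l1 at 17.4 ± 2.92 FPKM and Rpl22l1 at 16.8 ± 5.51 FPKM were measured in every library, and Rps4l was at 1.78 ± 0.799 FPKM. Their partners were at 0.428 FPKM (Rps27), 41.2 FPKM (Rpl7), 26.8 FPKM (Rpl22) and 37.4 FPKM (Rps4x). Among genes often used as reference genes, Rpl32 was at 61.8 FPKM, Rpl13a at 38.2, Rplp0 at 36 and Rps18 at 17.6, and Rpl19 and Rps16 were under 1 FPKM. As with the copies, reads could have been split with genes of shared sequence. All these levels and the ratios within pairs are therefore uncertain.

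In introns the highest levels were those of snoRNA hosts. Reads from introns in nuclear RNA come mostly from transcripts not yet spliced, or from stable RNAs cut out of introns. The median member had 90.7 intron reads per wild-type nuclear library. A named snoRNA gene lay in an intron of 24 of the 82 members, and the 10 members with the highest nuclear intron level were all hosts. Rps3, which hosts Snord15a and Snord15b, was highest at 49.8 ± 8.08 FPKM, then Rpsa (Snora62) at 23.2 ± 15.3 FPKM and Rpl32 (Snora7a) at 15.9 ± 3.63 FPKM. Hosts had a median of 3.96 FPKM and the other members 1.81 FPKM. In total RNA the intron level and the exons' unique share had a rho of -0.10.

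In the nucleus, intron reads of the ribosomal protein genes were higher in the dark, when food was offered. Dark samples were ZT14 to ZT22 and ZT0, and light samples ZT2 to ZT12. ZT0, when the lights came on, was counted as dark by choice. The column names mark only ZT14 to ZT22 as fed. Of 80 members tested in nuclear introns, 45 rose in the dark and 0 fell (limma adjusted p under 0.05), and 77 had a positive estimate, with a median of 0.33. Over all 12055 genes 35.4% were called, 18.4% higher and 16.9% lower, with a median of 0.02. Both subunits took part, with 28 of 48 large-subunit and 17 of 32 small-subunit genes higher. In wild type alone the median estimate was 0.30 with 72 of 80 positive, and in nono-/- 0.38 with 77 of 80 positive. Leaving out any 1 time point gave 38 to 48 calls, and the count without the snoRNA hosts was 35 of 56, all 56 with a positive estimate and a median of 0.38. The dark against light tests took the wild-type and nono-/- pools of a time point as independent. Deviations of such pools correlated, so the p-values of these tests may be too small.

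**Figure D2:**
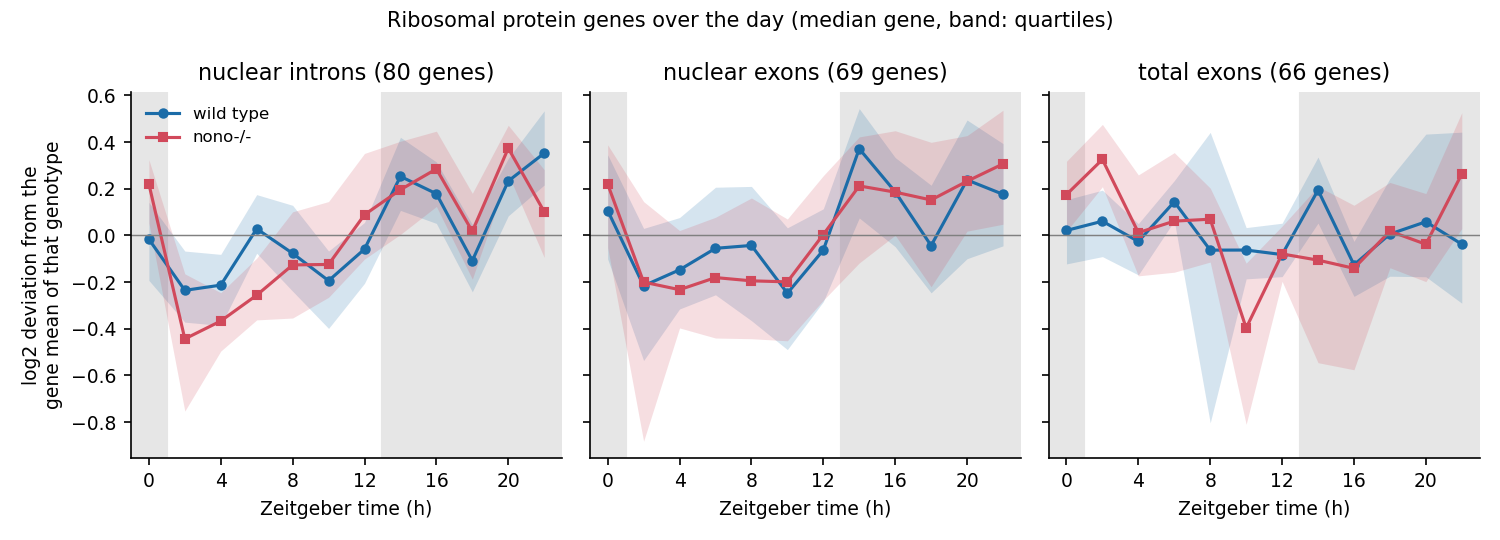
Median log2 deviation of the members from their own mean in each genotype (lines; bands are the quartiles over genes) at the 12 zeitgeber times, for nuclear introns (80 genes), nuclear exons (69) and total exons (66); grey marks the samples counted as dark. In nuclear introns the median gene lies below its mean at ZT2 and ZT4 and above it at ZT14, ZT16, ZT20 and ZT22 in both genotypes, and total exons show no such split.

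Rpl12, a protein at the base of the ribosomal stalk, rose most. Its nuclear intron level in wild type was 3.13, 4.71 and 6.25 FPKM (lowest, median and highest of 6) in the dark and 1.57, 2.66 and 3.40 FPKM in the light. In nono-/- it was 1.86, 3.86 and 5.30 FPKM in the dark and 0.552, 1.64 and 3.10 FPKM in the light. The dark libraries were higher with some overlap in both genotypes, and the difference was 0.998 ± 0.199 (log2 ± SE, limma adjusted p = 0.000526). Rpl12 hosts Snora65, and the snoRNA's own row did not pass in nuclear exons (-0.22 ± 0.26, adjusted p = 0.57).

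Rplp1, an acidic stalk protein that recruits elongation factors, was at 1.41, 2.02 and 2.66 FPKM in the dark and 0.535, 1.07 and 1.399 FPKM in the light in wild type. In nono-/- it was at 2.19, 2.63 and 3.26 FPKM and at 1.002, 1.45 and 1.88 FPKM. As deposited, no light library reached the lowest dark library in either genotype, though after scaling the wild-type groups overlapped. The difference was 0.88 ± 0.14 (adjusted p = 7.9e-05). The other stalk genes also rose, Rplp0 by 0.39 ± 0.12 and Rplp2 by 0.28 ± 0.10.

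Rpl3, close to the peptidyl transferase centre, was at 2.97, 4.85 and 6.38 FPKM in the dark and 1.91, 2.73 and 3.44 FPKM in the light in wild type. In nono-/- it was at 3.54, 4.31 and 6.31 FPKM and at 1.45, 2.55 and 4.12 FPKM, so the groups overlapped at the edges in both genotypes. The difference was 0.76 ± 0.13 (adjusted p = 0.000102). Rpl41, the smallest ribosomal protein, rose by 0.72 ± 0.22 (adjusted p = 0.0155). Rpl4 rose by 0.59, with no overlap in nono-/- (3.41 to 4.29 FPKM against 1.84 to 2.75 FPKM).

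**Figure D3:**
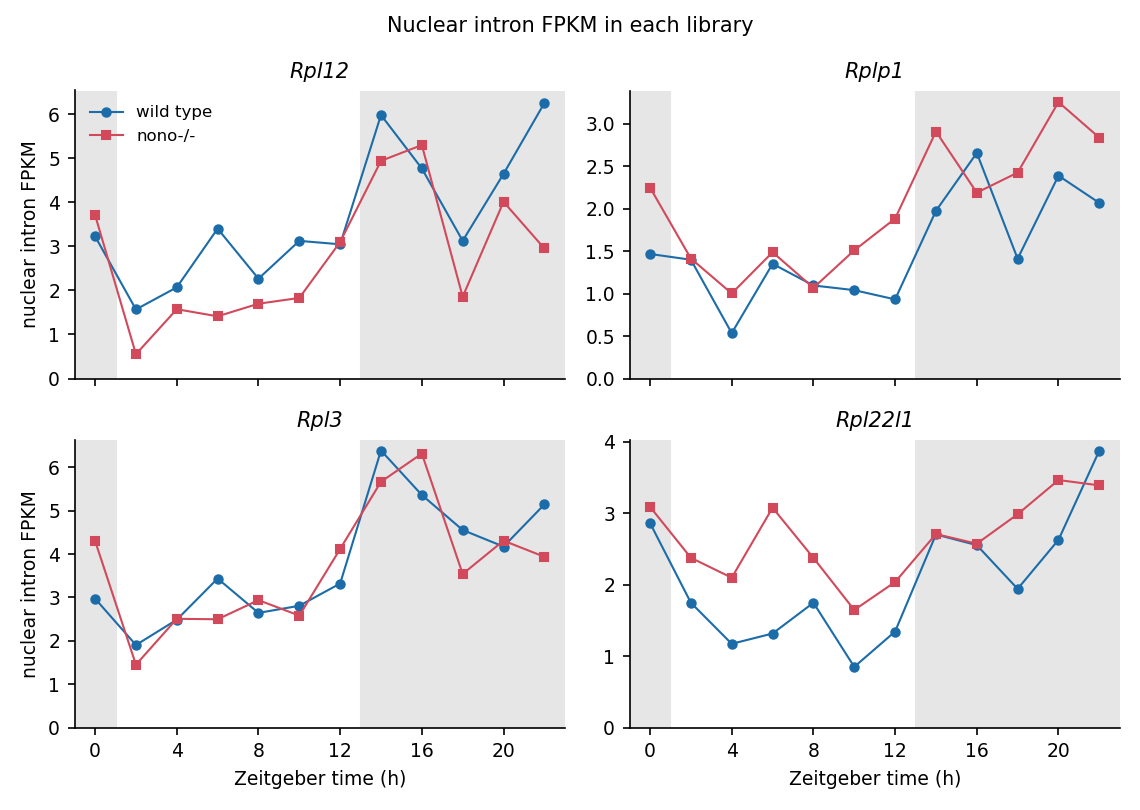
Nuclear intron FPKM of Rpl12, Rplp1, Rpl3 and Rpl22l1 in each of the 24 nuclear libraries by zeitgeber time; circles are wild type, squares nono-/-, grey marks the dark samples. All 4 are lowest in light samples in both genotypes and reach their highest values between ZT14 and ZT22.

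Of the paralogs, Rpl22l1 rose by 0.68 ± 0.13 (adjusted p = 0.000452) and Rpl7l1 by 0.37 ± 0.06 (adjusted p = 8.9e-05). Rps27l did not pass (0.18 ± 0.12), and neither did Rpl22 (0.09 ± 0.07), the standard partner of Rpl22l1, whereas Rpl7 (0.30 ± 0.08) and Rpl3 did. Of 4 X-linked members 3 rose, Rpl36a by 0.60, Rps4x by 0.54 and Rpl39 by 0.40, and Rpl10 was at 0.24 ± 0.11 (adjusted p = 0.0946). Rps4x had dark and light ranges that did not overlap in nono-/- (2.07 to 3.20 against 1.24 to 1.82 FPKM) and, as deposited, overlapped at the edge in wild type (1.92 to 2.94 against 1.39 to 1.98 FPKM). Of 6 common reference genes, Rplp0, Rpl19 and Rps16 rose, by 0.27 to 0.39, and Rpl13a, Rpl32 and Rps18 had estimates of 0.12 to 0.18 that did not pass. Rps6 rose by 0.27 ± 0.09 (adjusted p = 0.0245).

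Members with a pyrimidine run within 5 bases of the start were called higher in nuclear introns in 15 of 28 cases (median 0.28). Those without were called higher in 20 of 32 (median 0.38), beside 18.4% of all genes. The snoRNAs inside members have rows of their own. Of 29 snoRNA rows tested in nuclear exons, 1 rose in the dark, 4 fell and the median was -0.11. Of all genes there, 12.1% were higher and 13.3% lower, so the share that fell was near that of all genes. Some cell markers were also called. In nuclear introns 4 of 6 hepatocyte markers rose in the dark (median 0.54) and 2 of 8 Kupffer cell markers fell (median -0.23). Of all genes, 18.4% were higher and 16.9% lower. The summed hepatocyte markers in wild-type nuclear exons ran from 1413 to 2407 FPKM in the dark and from 1207 to 1654 FPKM in the light. Their part in the members' change was not tested, and fewer cells of a type and less RNA per cell cannot be told apart.

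Exon reads in the nucleus also rose for many members, while few were called in total RNA. In nuclear exons 23 of 69 members rose in the dark and 0 fell (of all genes 25.4% were called, 12.1% higher and 13.3% lower), with a median of 0.30. Without scaling, where the median of all genes moved by 0.16, the count was 35. Rpl12 went from 0.814 to 1.35 FPKM in the light to 1.70 to 2.55 FPKM in the dark in wild type, with no overlap, a difference of 0.90 ± 0.13 (adjusted p = 1.7e-05). Rps20 followed (0.86 ± 0.17), at 1.395 to 2.88 FPKM in the dark and 0.489 to 1.32 FPKM in the light in wild type. Rpl26 (0.68 ± 0.18) and Rplp1 (0.62 ± 0.17) also rose.

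In total exons 1 of 66 members rose and 1 fell, against 18.9% of all genes called, 10.2% higher and 8.61% lower, and the median was 0.04. The nono-/- library of ZT10 stood apart there, with a median deviation of -0.40 from the members' own means. Rpl7l1 rose by 0.43 ± 0.08 (adjusted p = 0.000338), from 12.3, 14.9 and 17.5 FPKM in the light to 17.5, 19.7 and 21.9 FPKM in the dark in wild type. The wild-type groups did not overlap, by a narrow margin, and the nono-/- groups did. Rpl22 fell by 0.23 ± 0.07 on the log2 scale (adjusted p = 0.0195), at 22.2 to 30.1 FPKM in the dark and 26.8 to 34.9 FPKM in the light in wild type, and was not called without ZT16, ZT18, ZT20 or ZT22. In nuclear exons Rpl22 was called in the other direction, higher in the dark by 0.27 ± 0.09 (limma adjusted p = 0.0228). Rpl3 (0.15 ± 0.17), Rplp1 (0.07 ± 0.15) and Rplp0 (0.01 ± 0.20) did not pass. Rpl12, at 0.83 and 0.764 FPKM in dark and light in wild type and 1.21 and 0.543 FPKM in nono-/-, had an estimate of 0.55 ± 0.23 (adjusted p = 0.0942).

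Side by side, 65 members were tested in both nuclear introns and total exons. Of these, 37 rose in nuclear introns and 1 of the 37 was also called in total exons. The nuclear intron estimate was the larger in 59 of the 65, with medians of 0.31 and 0.04. The difference between the layers itself was not tested, and a p that misses the threshold does not show that total RNA stayed level. Restricted to members with at least 50% unique windows, 16 of 37 rose in nuclear exons and 2 of 37 were called in total exons.

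**Figure D4:**
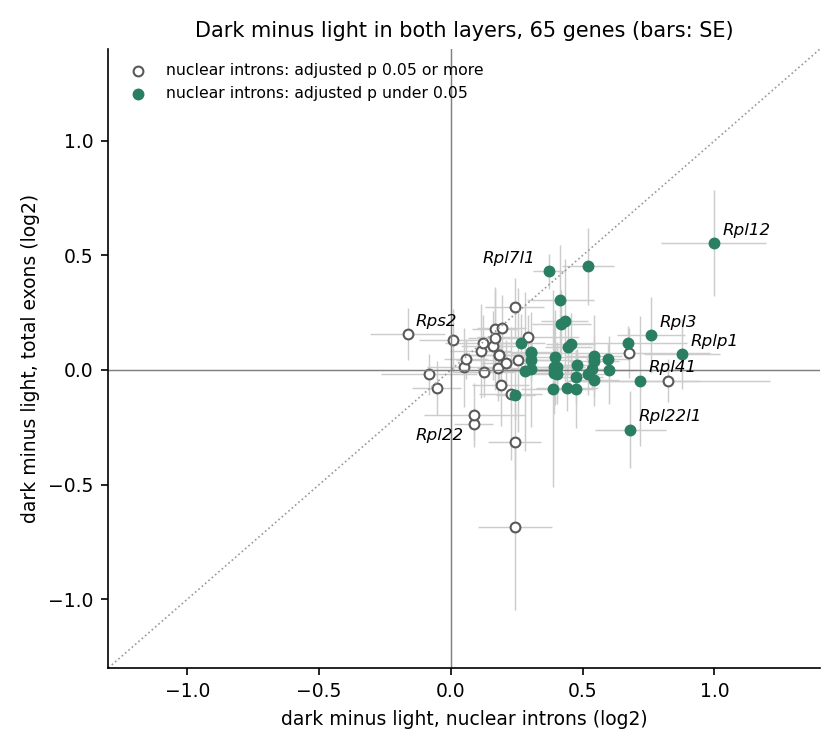
Dark minus light (log2) in nuclear introns against total exons for the 65 members tested in both, 1 point per gene with its SE in both directions; filled points passed in nuclear introns and the dotted line marks equal change. Most filled points lie to the right of 0 and near 0 on the vertical axis, and 59 of the 65 genes lie below the line.

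Related gene lists are given beside the shares of all genes called in the dark, 18.4% higher and 16.9% lower in nuclear introns and 10.2% higher and 8.61% lower in total exons, and differences between lists were not tested. Of 74 mitochondrial ribosomal protein genes, 33 rose and 3 fell in nuclear introns in the dark (median 0.23), and 8 rose and 2 fell in total exons (median 0.07). Genes of ribosome assembly and rRNA transcription gave 6 of 21 higher in nuclear introns and 10 of 18 higher with 2 lower in total exons (median 0.38). Nop2, an rRNA methyltransferase, rose by 0.88 ± 0.13, Nop56 and Nop58, of the box C/D snoRNA particle, by 0.77 ± 0.14 and 0.73 ± 0.15, and Polr1b, of RNA polymerase I, by 0.54 ± 0.08, all in total exons. Other TOP messenger RNAs had 8 of 21 higher in nuclear introns, among them the elongation factor genes Eef1b2 (0.70 ± 0.09), Eef1g (0.49 ± 0.08) and Eef1a1 (0.46 ± 0.09). Eef1a1 was at -0.07 ± 0.06 in total exons. Of the mTORC1 and TOP regulators 3 rose and 5 fell of 19 in nuclear introns (median -0.09), and 4 rose and 2 fell of 18 in total exons. In nuclear introns Deptor, an inhibitor of mTOR, fell by 0.77 ± 0.10 on the log2 scale, Sesn2 by 0.62 ± 0.13, Mtor by 0.55 ± 0.11, Eif4ebp1 by 0.50 ± 0.11 and Eif4ebp2 by 0.27 ± 0.07, and Mlst8 (0.48 ± 0.18), Eif4e (0.41 ± 0.10) and Larp1 (0.33 ± 0.10), which binds the TOP tract, rose.

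A 24 h curve was fitted to each genotype as well. In wild-type nuclear introns 6 of 80 members were rhythmic, against 20.7% of all genes, and in nono-/- 34 of 80, against 31.7%. Rpl3, Rpl35a, Rplp1 and Rps9 passed in both genotypes. The fitted peak lay between ZT12 and ZT24 in 73 of 80 members in wild type and in 79 of 80 in nono-/-, at ZT18.5 and ZT17.2 on average. Rpl22l1 had the largest called wild-type curve, 1.27 from trough to peak with a peak at ZT20.2 (adjusted p = 0.00551). In nono-/- the largest belonged to Rpl12 (1.69, peak at ZT16.6), which was not called without ZT16. Wild-type calls rose to 18 without ZT18, and nono-/- calls fell to 22 without ZT12 and to 20 without ZT2.

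In exons, 5 of 66 members were rhythmic in wild-type total RNA, against 31.6% of all genes, and 19 in nono-/-, against 29.6%. In nuclear exons 1 of 69 was called in wild type (Rpl39, background 10.5%) and 13 in nono-/- (background 30.8%). The 19 nono-/- members in total RNA peaked near ZT0.772, led among those at 1 FPKM or more by Rps4l (1.49 from trough to peak), Rplp0 (1.24) and Rpl18 (1.08), each lost when ZT2, ZT14 or ZT16 was left out, among others. The whole count was 8 to 12 without ZT2, ZT4, ZT6, ZT10, ZT14, ZT16 or ZT22. Rpl22l1 in wild-type total RNA peaked at ZT7.79 (1.01 from trough to peak, adjusted p = 0.0291), near the time when its nuclear introns were low, and was not called without ZT8, ZT18, ZT20 or ZT22. Rpl22 peaked at ZT7.27 (not called without ZT20) and Rpl6 at ZT21.3 (not called without ZT8). Rpl39 in wild-type nuclei was lost in 9 of 12 omissions. The test of a different curve in the genotypes called 0 of all genes in each of the 3 layers, also under every alternative run, and 10, 3 and 7 members had an unadjusted p under 0.05 in total exons, nuclear exons and nuclear introns, against 10.6%, 5.19% and 6.64% of all genes. The larger nono-/- counts are therefore not shown to be a difference between genotypes. In data simulated for total exons, a wild-type curve of 0.6 from trough to peak was recovered in 8% of genes. Few genes were made rhythmic there, so the adjustment was stricter than in these data, where 31.6% of all genes were called. The 8% is therefore not the recovery in these data, and how many such curves were missed here was not measured.

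Between genotypes, total exon levels moved little. In nono-/- 2 of 66 members rose and 0 fell, against 10.9% of all genes called, 4.45% higher and 6.48% lower, with a median of 0.09. Both were paralogs. Rpl22l1 went from 8.99, 15.2 and 28.4 FPKM (lowest, median and highest of 12) to 15.96, 21.0 and 36.7 FPKM, by 0.45 ± 0.14 (adjusted p = 0.0467). Rps27l, a p53 target, went from 99.3, 119 and 155 FPKM to 123, 152 and 222 FPKM, by 0.34 ± 0.11 (adjusted p = 0.0478). The ranges overlapped for both genes, with 10 of 12 time points in the direction of the rise. Each call was lost when any of 10 of the 12 time points was left out, and with the intron share as a covariate 0 members passed. Rpl39 was at 64.4 ± 12.5 and 84.4 ± 19.7 FPKM (0.36 ± 0.13, adjusted p = 0.0681), and Rpl4, Rplp0, Rpl13a, Rpl32 and Rps18 did not pass. Kupffer cell markers were higher in nono-/-, 5 of 8 of them in total exons (median 0.35), with a summed level of 90.8 to 242 FPKM against 73.5 to 186 FPKM in wild type, and their part in these values was not tested.

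In introns of total RNA 14 of 80 members were higher in nono-/- and 0 lower, against 16% of all genes called, 6.62% higher and 9.34% lower, and 78 had a positive estimate (median 0.28). Rplp1 rose from 0.58 ± 0.237 to 0.858 ± 0.296 FPKM (SD, n = 12), by 0.81 ± 0.17 (adjusted p = 0.00499), and Rpl39 from 0.442 ± 0.161 to 0.599 ± 0.202 FPKM, by 0.66 ± 0.17. Rps26, Rpl32 and Rpl36a rose by 0.57, 0.52 and 0.51, each not called in 5 to 7 of the 12 omissions of a time point. This rise is relative to the median gene, whose intron level as deposited moved by -0.21, and without scaling 1 member was higher, 1 lower and the median was 0.03. With the time points as a replicate block, 24 members were higher. Leaving out ZT0, ZT2, ZT4, ZT8, ZT12, ZT16 or ZT18 gave 5 to 9, and with the intron share as a covariate 0 passed.

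In nuclear introns the 3 members with the highest wild-type levels fell in nono-/-. They are snoRNA hosts, as are all of the 10 highest members. Of 80 members 1 rose and 11 fell, with a median of -0.07. Of all genes 18.1% were called, 7.91% higher and 10.2% lower, so the members' called share was near that of all genes. Rps3 went from 37.3, 49.6 and 65.8 FPKM to 11.1, 34.9 and 52.7 FPKM (-0.68 ± 0.16, adjusted p = 0.00798). Rpsa, the laminin receptor gene, went from 7.20, 18.9 and 58.2 FPKM to 2.22, 10.8 and 22.2 FPKM (-1.06 ± 0.29, adjusted p = 0.0161) and was not called without ZT6. Rpl32 went from 15.9 to 11.8 FPKM on average (-0.44 ± 0.11). All 3 hosts had overlapping ranges and were lower in 9 to 11 of 12 time points. Rps15, which hosts no named snoRNA, fell by 0.90 ± 0.24 on the log2 scale. Rpl22l1 was the member that rose, by 0.45 ± 0.13 (adjusted p = 0.0229, not called without ZT6, ZT12, ZT18 or ZT20), and Rpl22 fell by 0.25 ± 0.08.

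**Figure D5:**
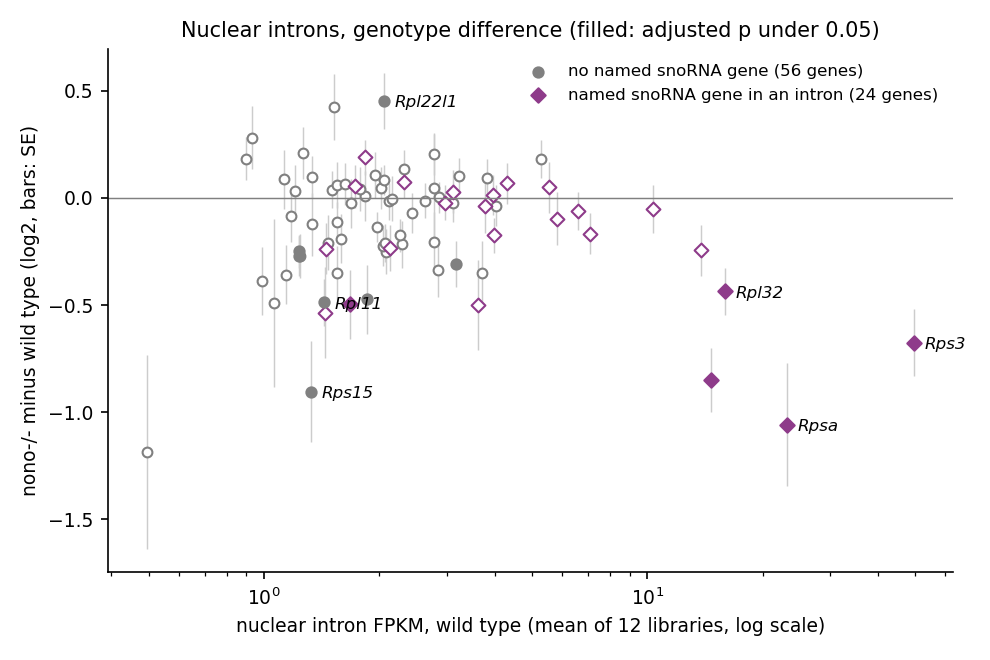
Difference between nono-/- and wild type in nuclear introns (log2, bars are SE) against the wild-type nuclear intron level (FPKM, mean of 12 libraries, log scale) for the 80 tested members; diamonds are genes with a named snoRNA gene in an intron and filled symbols passed. The 3 highest hosts, Rps3, Rpsa and Rpl32, lie below 0 and are filled, while Rpl22l1 is the filled symbol above 0.

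Hosts of the H/ACA kind of snoRNA, which guides pseudouridylation, had a median of -0.23 with 3 of 11 called lower, and members with no named snoRNA had a median of -0.03 with 6 lower and 1 higher of 56. Members with C/D snoRNAs only, such as Rps3, had a median of -0.04 with 2 of 13 lower. The snoRNAs themselves have their own rows. In nuclear exons 9 of 29 were lower in nono-/- and 0 higher (median -0.26), against 18.6% of all genes lower, with medians of -0.26 for H/ACA and -0.28 for C/D. In total exons 0 of 25 were called by limma, 4 had an unadjusted p under 0.05, and the median was 0.29 with 3 negative. Snord15b in Rps3 went from 1145 to 746 FPKM (-0.53 ± 0.16, adjusted p = 0.0142), and Snora7a in Rpl32 from 309 to 225 FPKM (-0.26 ± 0.11, adjusted p = 0.0673). These snoRNAs were named after their values were seen, since they lie in the hosts named above, and reads of a snoRNA and of the intron around it cannot be told apart in the intron table. The count of members was 20 without ZT0, 5 to 7 without ZT6, ZT18, ZT20 or ZT22, and 2 with the intron share as a covariate.

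Nuclear exons split in both directions. In nono-/- 15 of 69 members were lower and 8 higher, against 34.3% of all genes called, 18.6% lower and 15.7% higher, a share near that of all genes. Rps15 (-1.42 ± 0.36), Rpl8 (-1.10 ± 0.24), Rps9 (-0.91 ± 0.25) and Rpl32 (-0.75 ± 0.20) were among those that fell. Rpl8 went from 1.35, 3.64 and 10.2 FPKM to 0.324, 1.62 and 3.41 FPKM and was lower at 11 of 12 time points, with overlap. Rpl32 was lower at 12 of 12 time points, at 2.18 ± 0.693 and 1.19 ± 0.556 FPKM. Rps27a, a ubiquitin fusion gene, rose by 0.57 ± 0.19, Rpl17 by 0.43 ± 0.14, Rpl37a by 0.39 ± 0.13, Rpl27a by 0.38 ± 0.09 and Rpl5, which binds 5S rRNA, by 0.37 ± 0.11, and of these Rpl27a alone was called in every omission. Without scaling, where the median of all genes moved by -0.20, 24 members were lower and 0 higher, and with the intron share as a covariate 3 were lower and 0 higher. Without ZT18 the count was 13.

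Exon levels of most members were far lower in nuclear than in total RNA. On the log2 scale, after scaling each fraction to its own median library, the wild-type nuclear to total ratio of the 63 members tested had a median of -3.08, and that of all 9871 genes -1.33. Of the 63, 52 were below 0 and 7 above it, against 91.7% of all genes called, 9.97% above and 81.7% below. Rps20 (-5.62 ± 0.12), Rpl39 (-5.35 ± 0.14), Rplp1 (-5.20 ± 0.16), Rpl26 (-5.16 ± 0.13) and Rps27l (-5.15 ± 0.11) were lowest. The 7 with a positive ratio were Rpl9 (1.01 ± 0.23), Rps12 (1.01 ± 0.16), Rps27a, Rpl12, Rpl10, Rpl21 and Rps25, the last 2 named after their values were seen. Rpl9 had 6.68% unique windows and Rpl10 7.87%. Members with at least 50% unique windows had a median of -3.79, with 32 below and 3 above 0 of 35. The mitochondrial family had a median of -2.72 with 70 of 70 below 0.

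The ratio differed between genotypes in 15 of 63 members, 4 higher and 11 lower in nono-/-, against 19.6% of all genes called, 10.4% higher and 9.19% lower. Rpl10 (0.54 ± 0.13), Rps6 (0.49 ± 0.16), Rpl5 (0.47 ± 0.16) and Rpl27a (0.44 ± 0.09) were higher, and Rpl18 (-1.12 ± 0.35), Rpl8 (-1.003 ± 0.312), Rpl32 (-0.87 ± 0.22) and Rps9 (-0.87 ± 0.29) were among the lower ones. With the time points as a replicate block 9 passed, 2 higher and 7 lower. Without scaling, where all genes moved by -0.21, 21 passed and all were lower. Leaving out ZT2, ZT6, ZT8, ZT12, ZT18, ZT20 or ZT22 gave 5 to 8, and with the intron share as a covariate 0 passed.

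Members varied together most in nuclear introns. The mean pairwise correlation among members over the 12 libraries of a genotype, given as a description over genes that share library depth, was 0.42 in wild-type and 0.43 in nono-/- nuclear introns, 0.25 and 0.31 in total introns, 0.19 and 0.18 in nuclear exons, and 0.12 and 0.25 in total exons. Among all genes it was 0.00 in each. Scaling each library to the median gene draws that mean toward 0, so it is not a baseline for a gene family. Another family was not compared.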

How the data were processed

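Strand-specific total RNA libraries (TruSeq Stranded Total RNA with Ribo-Zero Gold, per the labels' protocols) were sequenced; the submitters' processing notes name the build mm10, FastQC 0.11.2 and STAR 2.4.0k. The authors deposited FPKM values over exons and over introns, computed with HOMER, per the file headers. Multi-mapping and strand settings are not given in the sources used here. From these values, libraries were scaled to the median ratio to the geometric-mean library, log2(FPKM + 0.1) for exons or log2(FPKM + 0.05) for introns was taken, genes under 0.5 FPKM on average in exons, or under 0.1 in introns, were dropped, and limma 3.58.1 (R 4.3.3, trend) with Benjamini-Hochberg adjustment over all genes was run at a threshold of 0.05. Genotype and rhythm used 24 h cosine and sine terms by genotype; dark minus light used the 6 dark and 6 light times with genotype; nuclear to total ratios used log2 differences within a pool. Depth came from the value steps: 100% of values were whole reads within 0.1. The steps were tested on simulated data with few changed genes, in which a genotype change of log2 0.6 in total exons was recovered in 81% of genes.

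The members and gene lists were chosen with earlier results of these data known. Named members are the 5 with the largest called change in each direction at 1 FPKM (exons) or 0.2 FPKM (introns) or more, with fixed paralog pairs, reference genes, X-linked members, Rplp1, Rplp2, Rpsa, Rps6 and the extremes of level; some are not reported here. Shared sequence was counted as 50-base windows, or 100-base where stated, matching GENCODE vM21 transcripts of other genes exactly, an upper bound on uniqueness. Same-numbered samples share a time point: deviations from group means correlated above 0.1 in 12 of 12 pairs in all layers but nuclear exons, where 11 of 12 did; residuals of the daily curve did so in 9, 7, 7 and 9 of 12 pairs of total exons, nuclear exons, total introns and, last, nuclear introns. The alternatives were scaling, pseudocount, filter, intron share, time-point block, 12 h terms and each time point left out.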

Additional observations from a re-analysis of the deposited data

Results flagged for a closer look

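The genotype difference was not the same in nuclear and total exons for 8 of the members named above, by the limma test of the nuclear to total ratio. The signed nono-/- minus wild-type difference was higher in nuclei than in total RNA for Rpl10 by 0.54, Rps6 by 0.49, Rpl5 by 0.47 and Rpl27a by 0.44 (log2). It was lower in nuclei for Rpl18 (-1.12), Rpl8 (-1.003), Rpl32 (-0.87) and Rps9 (-0.87), which fell in nuclei and moved less in total RNA. Their differences in nuclear and total exons were -1.12 and 0.01 for Rpl18 and -1.10 and -0.10 for Rpl8. For Rpl32 they were -0.75 and 0.13, and for Rps9 -0.91 and -0.04. Only Rpl10, Rpl27a and Rpl32 passed whichever single time point was left out. With the time points as a replicate block Rpl10, Rpl5, Rpl18 and Rps9 did not pass, and with the larger pseudocount, as without a filter, Rps6, Rpl5, Rpl18, Rpl8 and Rps9 did not. Without scaling the 4 higher ones did not pass. None of the 8 passed with the intron share of the reads as a covariate.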

How the results depend on the processing

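Counts are of members called. With the intron share of the reads as a covariate, genotype counts were 0 in total exons, 3 in nuclear exons, 0 in total introns, 2 in nuclear introns and 0 for the ratio, and rhythm counts were 6 (nono-/- total exons) and 3 (wild-type nuclear exons). Without a filter they were 0 (genotype, total exons), 8 (total introns), 8 (ratio by genotype), and 3, 12 and 0 for rhythm in wild-type and nono-/- total exons and wild-type nuclear exons. Unscaled values gave 5, 2 and 7 for genotype in total exons, total introns and nuclear introns, 35 for dark against light in nuclear exons and 5 for wild-type rhythm there. A filter 4 times stricter gave 8 (genotype), 8 (nono-/- rhythm) and 10 (dark) in nuclear exons and 18 for the wild-type ratio, over fewer genes. The larger pseudocount gave 0 (wild-type rhythm, nuclear exons) and 9 (ratio by genotype). Added 12 h terms gave rhythm counts of 1 and 4 in total exons, 0 and 6 in nuclear exons and 2 and 11 in nuclear introns (wild type, nono-/-). With the time points paired as a replicate block, genotype counts were 24 in total introns and 9 for the ratio, and 3, 28 and 17 in total exons, nuclear exons and nuclear introns. Chosen after seeing the data, members with at least 50% unique windows gave 1 (genotype, total exons) and 35 (wild-type ratio), and those without a snoRNA gave 9 and 7 (genotype, total and nuclear introns). For the other changes the cause was not tested.

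Leaving out 1 time point gave 0 to 2 (total) and 13 to 29 (nuclear) for genotype in exons, 5 to 19 (total) and 5 to 20 (nuclear) in introns, and 5 to 21 for the ratio by genotype. Rhythm gave 1 to 7 and 8 to 28 in total exons, 0 to 2 and 7 to 23 in nuclear exons, and 4 to 18 and 20 to 46 in nuclear introns (wild type, nono-/-). Dark against light gave 1 to 3 in total exons, 18 to 26 in nuclear exons and 38 to 48 in nuclear introns, and the wild-type ratio 57 to 60. Of the named genes' values under all alternatives, 1105 kept the call, 288 lost it and 0 reversed. Only genotype, dark against light and ratio values could reverse. A rhythm estimate has no sign, and its peak time was not compared. The median member had 90.7 intron reads per wild-type nuclear library, which limits what single low members can show.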

Other observations

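The mitochondrial ribosomal protein genes, whose products form the separate ribosome of mitochondria, were also compared between genotypes. In nono-/- total exons 10 of 74 rose and 0 fell (median 0.13), against 4.45% and 6.48% of all genes. In nuclear exons 1 of 70 rose and 16 fell (median -0.11), against 15.7% and 18.6%, and in nuclear introns 1 of 74 rose and 11 fell (median -0.12), against 7.91% and 10.2%. Counting both directions together, the called shares in both nuclear layers were below those of all genes. In each of these layers the share that fell was above that of all genes, and the share that rose was below it. Of the mTORC1 and TOP regulators, 0 of 18 rose and 4 fell in total exons, and in nuclear exons 1 of 18 rose and 9 fell (median -0.40), beside the same shares of all genes.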
